A study of Mus musculus with 8 samples.

Results

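The genes described here are 9 genes that mark mast cells and basophils: Ms4a2, Cpa3, Fcer1a, Mcpt8, Mcpt4, Cma1, Tpsb2, Hdc and Il1rl1. They were picked by symbol, with earlier results of the same libraries known, from the 23997 genes of a table of FPKM (sequenced fragments relative to transcript length and to the depth of the library) covering 8 libraries. All 9 passed the filter on low values (2 or more libraries with an FPKM of 1 or higher), which 12565 genes passed. Because the choice used these measurements, the levels and differences of the 9 genes are given as a description. Where the outcome of the fit over all genes is stated for them, it stands beside the share of all genes and nothing is read from it.

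The libraries came from the bone marrow of C57BL/6 mice with a transplanted leukemia. AE+Meis2 marrow (n = 3) had been transduced with AML1-ETO, the fusion of the transcription factor RUNX1 (AML1) with RUNX1T1 (ETO), together with the homeobox gene Meis2, and the labels give a median latency of 171 days. AE9a+Meis2 marrow (n = 3) carried AML1-ETO9a, a shorter splice form of the fusion, with Meis2 (median latency 102 days). AE9a marrow (n = 2) carried AML1-ETO9a alone (median latency 138 days). In all groups the donors had received the cytotoxic drug 5-fluorouracil 4 days before marrow was taken, the cells were grown with IL3, IL6 and SCF, and 48 h after transduction they went into lethally irradiated recipients. Every library is therefore leukemic, and no library of healthy or untransduced marrow is compared here. The labels do not say which donor, transduction or sequencing run a library came from, so the errors cover the variation among the libraries, whether technical or not. The RNA is that of whole marrow, in which fewer cells of a type and less RNA per cell cannot be told apart.

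Mast cells and basophils are granule-filled myeloid cells that carry the high-affinity receptor for IgE, FcεRI, and release stored mediators when bound IgE is crosslinked by antigen. Their granules hold histamine bound to proteoglycan and, in mast cells, large amounts of proteases: chymases, tryptases and carboxypeptidase A3. Mast cells mature in tissues from marrow progenitors, and in the mouse they are grown from marrow in IL-3 with or without stem cell factor (SCF), the ligand of KIT, whereas basophils finish their maturation in the marrow. Transcription factors of the GATA family, GATA2 above all, are required for both cell types, and RUNX1 gives the AML1-ETO fusion its DNA-binding domain.

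The stretches just upstream of 5 of the genes are shown because the levels of these genes set the pattern described below: Cpa3, highest in the AE+Meis2 libraries, Fcer1a and Ms4a2, which encode subunits of one receptor, and the chymases Cma1 and Mcpt4. They are RefSeq sequences (GRCm38.p6) of up to 250 bases before the annotated start, without bases that lie in an annotated exon, read 5′ to 3′ on the strand of the gene, which is the minus strand for all 5. Capitals mark GATAA or its reverse complement TTATC, the core letters of GATA factor motifs, and TGTGGT or its reverse complement ACCACA, those of RUNX motifs. The stretches lie at chr3:20242210-20242431 (Cpa3), chr1:173227233-173227479 (Fcer1a), chr19:11623791-11623969 (Ms4a2), chr14:55944676-55944925 (Cma1) and chr14:56062314-56062560 (Mcpt4).
Cpa3: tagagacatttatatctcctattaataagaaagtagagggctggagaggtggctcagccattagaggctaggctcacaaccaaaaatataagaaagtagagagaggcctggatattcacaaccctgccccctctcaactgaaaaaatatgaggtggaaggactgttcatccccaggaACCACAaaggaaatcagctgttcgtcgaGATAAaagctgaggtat
Fcer1a: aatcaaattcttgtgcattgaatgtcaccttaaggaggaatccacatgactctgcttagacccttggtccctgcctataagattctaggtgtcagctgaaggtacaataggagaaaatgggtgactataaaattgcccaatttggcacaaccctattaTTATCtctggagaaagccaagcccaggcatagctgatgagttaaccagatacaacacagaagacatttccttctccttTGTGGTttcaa
Ms4a2: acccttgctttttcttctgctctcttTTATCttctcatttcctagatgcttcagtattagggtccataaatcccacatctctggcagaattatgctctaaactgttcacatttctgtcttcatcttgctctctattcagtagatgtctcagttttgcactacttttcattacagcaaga
Cma1: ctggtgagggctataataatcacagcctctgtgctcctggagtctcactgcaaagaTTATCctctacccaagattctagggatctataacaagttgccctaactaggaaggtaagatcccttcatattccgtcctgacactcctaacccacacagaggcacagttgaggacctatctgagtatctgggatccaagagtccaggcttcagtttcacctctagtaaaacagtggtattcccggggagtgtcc
Mcpt4: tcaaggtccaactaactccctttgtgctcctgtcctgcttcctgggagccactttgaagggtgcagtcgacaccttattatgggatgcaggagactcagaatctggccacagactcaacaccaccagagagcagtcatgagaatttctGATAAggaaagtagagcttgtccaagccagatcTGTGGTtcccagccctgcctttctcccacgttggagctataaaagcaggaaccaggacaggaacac
Each of the 5 stretches held 1 match to GATAA, and Cpa3, Fcer1a and Mcpt4 held 1 match to TGTGGT. RefSeq gave 9 start windows for 8 of the genes (2 for Il1rl1). Read over the full 250 bases on both strands, GATAA was in 7 of these 9 windows and in 22.6% of the 32851 windows of all genes. TGTGGT was in 5 of the 9 windows and in 14% of all, and the E-box letters CANNTG were in 7 of the 9 and in 66.2% of all. TGACAG, the core of MEIS motifs, was in 2 of the 9 windows and in 15.9% of all. These are matches of letters only.

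The table holds no read counts, so absolute depth is unknown, and the ratios of low values put the shallowest library at 12.3% of the depth of the deepest, as a rough estimate. The library labelled AE+Meis2 replicate 1 stood at 13.1 FPKM for Meis2 and 21.6 FPKM for Runx1t1, whereas AE+Meis2 replicates 2 and 3 stood at 38.2 and 81.5 FPKM for Meis2 and at 223 and 218 FPKM for Runx1t1. For Runx1t1, AE9a+Meis2 stood at 10.3 to 18.0 FPKM and AE9a at 26.8 and 23.4 FPKM, and for Meis2 they stood at 604 to 1277 FPKM and at 6.99 and 13.2 FPKM. The library labelled AE+Meis2 replicate 1 therefore went against its label on the transduced genes. For the genes picked by symbol, each group difference from the fit to all libraries that involves it is given below with and without it. Medians over genes and the differences of Ccl3, Cebpa and Cyp11a1 are given only with it, as are the counts of picked genes higher or lower. In AE9a+Meis2 replicate 3 and AE9a replicate 1, 84.1% and 72.1% of 1543 genes of families silent in marrow had a value above 0, against 3.37% to 6.61% in the other 6 libraries.

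Of the 9 genes, 6 were among the abundant transcripts of most of these marrows, and Mcpt4, Tpsb2 and Mcpt8 were not. Their summed level was 4804, 1368 and 1741 FPKM in AE+Meis2, 902.7, 2209 and 1704 FPKM in AE9a+Meis2, and 1496 and 2882 FPKM in AE9a. Of the 9, 8, 3 and 5 genes were among the 1199 most abundant genes (the top 5%) in the AE+Meis2 libraries, 6 were in each AE9a+Meis2 library and 6 in each AE9a library. Mcpt8 was in this top 5% in no library, and Cpa3 ranked between 76 and 386 of 23997 genes in all 8 libraries. AE+Meis2 replicate 2, the second sparsest library by the depth estimate at 14.6%, kept only Cpa3, Il1rl1 and Fcer1a in that top 5%, and Mcpt4 ranked 13850 and Tpsb2 13070 in it.

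**Figure D1:**
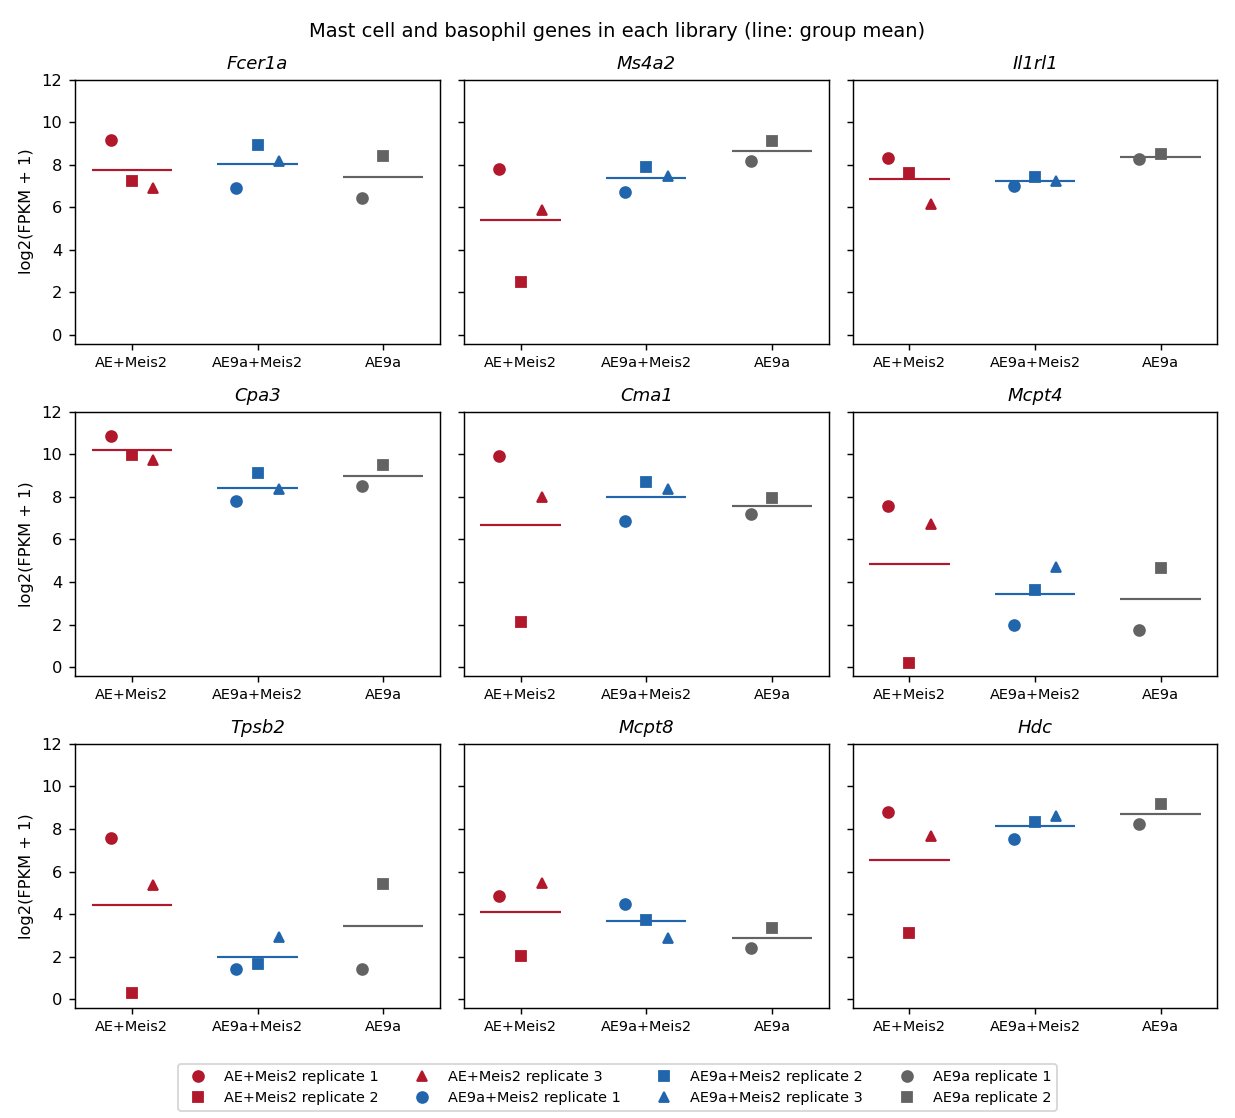
Level of each of the 9 genes in each library, as log2(FPKM + 1), by group; 1 point is 1 library and the line is the group mean. AE+Meis2 replicate 2 (red square) lies far below the other 7 libraries for Ms4a2, Cma1 and Hdc. It is also the lowest for Mcpt4 and Tpsb2, by less on this scale. Its Cpa3 level of 1005 FPKM lies above all AE9a+Meis2 and AE9a libraries.

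Fcer1a encodes the IgE-binding alpha chain of FcεRI (chromosome 1, 173221269 to 173227232, GRCm38.p6). It stood at 568, 148 and 117 FPKM in AE+Meis2, 121, 488 and 291 FPKM in AE9a+Meis2, and 87.1 and 339 FPKM in AE9a. The groups overlapped, with low and high libraries in each of them. Ms4a2 encodes the beta chain, which amplifies the signal of the same receptor (chromosome 19, 11615517 to 11623790). Its level was 226, 4.65 and 58.3 FPKM in AE+Meis2, 106, 234 and 177 FPKM in AE9a+Meis2, and 293 and 558 FPKM in AE9a. Both AE9a libraries lay above all 6 others, and AE+Meis2 replicate 2 lay 12.5-fold below the next lowest library. Of all genes tested, 10.7% were lower in AE9a+Meis2 than in AE9a without overlap, and 8.66% were lower in AE+Meis2. The share with both was not counted. The ratio of Ms4a2 to Fcer1a, each per kilobase, was 0.397, 0.0315 and 0.496 in AE+Meis2, 0.873, 0.48 and 0.609 in AE9a+Meis2, and 3.36 and 1.65 in AE9a, so that Ms4a2 exceeded Fcer1a only in the 2 AE9a libraries. This ratio reuses the Ms4a2 levels above, and how often ratios of other genes set these libraries apart was not counted.

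Il1rl1 encodes ST2, the receptor for the alarmin IL-33, found on mast cells and basophils and also on type 2 innate lymphoid cells (chromosome 1, 40404864 to 40465418). It stood at 314, 196 and 69.3 FPKM in AE+Meis2, 127, 173 and 152 FPKM in AE9a+Meis2, and 305 and 361 FPKM in AE9a. Both AE9a libraries lay above the 3 AE9a+Meis2 libraries (as for 10.7% of all genes tested), and AE+Meis2 overlapped both of the other groups. Its 5.21-fold spread between the highest and the lowest library was the narrowest of the 9 genes.

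Cpa3 encodes carboxypeptidase A3, the metalloprotease of mast cell granules, which is also transcribed in basophils and in progenitors (chromosome 3, 20215616 to 20242209). Its level was 1875, 1005 and 849 FPKM in AE+Meis2, 222, 552 and 326 FPKM in AE9a+Meis2, and 359 and 715 FPKM in AE9a. All 3 AE+Meis2 libraries lay above all 5 others, which no other gene of the 9 did. For 7% of all genes tested, every AE+Meis2 library lay above every AE9a+Meis2 library. With AE9a in place of AE9a+Meis2 the share was 9.96%. How many genes did both was not counted. The group averages were 1243 ± 552.8 FPKM in AE+Meis2 (SD, n = 3), 366.8 ± 168.8 FPKM in AE9a+Meis2 (SD, n = 3) and 537.3 ± 251.7 FPKM in AE9a (SD, n = 2). Cpa3 made up 39.0%, 73.5% and 48.7% of the summed FPKM of the 9 genes in AE+Meis2, 24.6%, 25.0% and 19.1% in AE9a+Meis2, and 24.0% and 24.8% in AE9a. When the library labelled AE+Meis2 replicate 1 was left out, the 2 remaining AE+Meis2 libraries were still the 2 highest.

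Cma1 encodes the mouse alpha-chymase (mast cell protease 5), stored in the granule with carboxypeptidase A3 (chromosome 14, 55941451 to 55944675). Its level was 962, 3.30 and 253 FPKM in AE+Meis2, 116, 418 and 334 FPKM in AE9a+Meis2, and 145 and 248 FPKM in AE9a. AE+Meis2 held both the highest and the lowest library, and the lowest, replicate 2, lay 35.2-fold under the next. The level of Cma1 relative to Cpa3 was 0.513, 0.00328 and 0.298 in AE+Meis2, 0.523, 0.758 and 1.02 in AE9a+Meis2, and 0.403 and 0.346 in AE9a.

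Mcpt4 encodes a beta-chymase of connective tissue mast cells (chromosome 14, 56059744 to 56062310). It stood at 189, 0.13 and 106 FPKM in AE+Meis2, 2.89, 11.4 and 25.0 FPKM in AE9a+Meis2, and 2.39 and 24.3 FPKM in AE9a. The library labelled AE+Meis2 replicate 1 and AE+Meis2 replicate 3 lay above the other 6 libraries and replicate 2 below them, a 1460-fold spread that was the widest of the 9 genes and was 79.3-fold without replicate 2. Tpsb2 encodes a tryptase, also called mast cell protease 6 (chromosome 17, 25366308 to 25368096). Its level was 191, 0.233 and 39.7 FPKM in AE+Meis2, 1.67, 2.13 and 6.67 FPKM in AE9a+Meis2, and 1.71 and 41.7 FPKM in AE9a. The groups overlapped: 1 library of AE9a was as high as AE+Meis2 replicate 3 and the other was as low as AE9a+Meis2.

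Mcpt8 encodes a granzyme-like protease used in the mouse as a marker of basophils (chromosome 14, 56082163 to 56085499). Its level was 27.6, 3.03 and 43.2 FPKM in AE+Meis2, 21.2, 12.1 and 6.37 FPKM in AE9a+Meis2, and 4.30 and 9.12 FPKM in AE9a. It was highest in AE+Meis2 replicate 3, and the groups overlapped. Hdc encodes histidine decarboxylase, the enzyme that makes histamine (chromosome 2, 126593659 to 126624025). It stood at 451, 7.79 and 205 FPKM in AE+Meis2, 185, 316 and 387 FPKM in AE9a+Meis2, and 299 and 586 FPKM in AE9a. AE+Meis2 replicate 2 was 23.7-fold below the next lowest library, and the other 7 libraries lay within 3.17-fold of each other.

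Between AE9a+Meis2 and AE9a, which share the splice form and differ in Meis2, 4 of the 9 genes had a higher and 5 a lower mean log2(FPKM + 1). Ms4a2 differed by -1.30 ± 1.35 and Il1rl1 by -1.15 ± 0.56 on this scale (± SE), and in both the AE9a+Meis2 libraries lay below the AE9a libraries without overlap, as they did for 10.7% of all genes tested. The differences of the other genes lay between -1.43 ± 2.07 for Tpsb2 and 0.82 ± 1 for Mcpt8. The sign of 3 of them rested on single AE9a libraries: Tpsb2 stood at 0.56 without AE9a replicate 2 and at -3.42 without AE9a replicate 1, and without AE9a replicate 1 Mcpt4 stood at -1.23 (0.22 ± 2.17 with all libraries) and Fcer1a at -0.39 (0.58 ± 0.90). Mcpt4 also stood at -0.41 without AE9a+Meis2 replicate 3. Without AE9a+Meis2 replicate 3 and AE9a replicate 1 together, Tpsb2 stood at -3.89, Mcpt4 at -1.86 and Fcer1a at -0.47. Cma1 changed sign there, to -0.17 (0.42 ± 2.02 with all libraries). With all libraries the median of the 9 was -0.56, and that of all tested genes was 0. None of the 9 reached an adjusted p under 0.05 (limma, Benjamini-Hochberg), against 0.0478% of all genes tested, and 0 of the 9 had an unadjusted p under 0.05, against 3.06% of all.

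Between AE+Meis2 and AE9a+Meis2, which carry different forms of the fusion and whose Meis2 levels also differed (13.1 to 81.5 FPKM in AE+Meis2 and 604 to 1277 FPKM in AE9a+Meis2), 5 of the 9 genes had a higher and 4 a lower mean, with a median difference of 0.12 against 0.04 for all tested genes. Cpa3 differed by 1.77 ± 0.46, with the AE+Meis2 libraries above the AE9a+Meis2 libraries without overlap, as they were for 7% of all genes tested. The difference was 1.43 without the library labelled AE+Meis2 replicate 1. For the granule protease genes the standard errors were wide, with Tpsb2 at 2.41 ± 1.85, Mcpt4 at 1.40 ± 1.94, Cma1 at -1.32 ± 1.80 and Mcpt8 at 0.42 ± 0.89. Hdc differed by -1.60 ± 1.33, Ms4a2 by -1.96 ± 1.2, Fcer1a by -0.27 ± 0.81 and Il1rl1 by 0.12 ± 0.50. Without the library that went against its label, labelled AE+Meis2 replicate 1, Tpsb2 stood at 0.82, Mcpt4 at 0.03, Cma1 at -2.94, Mcpt8 at 0.05, Hdc at -2.74, Ms4a2 at -3.17, Fcer1a at -0.97 and Il1rl1 at -0.35. Like Cpa3, these 8 differences were lower without it, and that of Il1rl1 changed sign. Without AE+Meis2 replicate 2, Tpsb2 stood at 4.47, Mcpt4 at 3.73, Cma1 at 0.96, Mcpt8 at 1.46, Hdc at 0.10 and Ms4a2 at -0.51, so the sign of Cma1 and Hdc rested on that library. None of the 9 passed in limma, against 0.0398% of all genes tested, and 1 of the 9 had an unadjusted p under 0.05, against 7.15% of all.

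Between AE+Meis2 and AE9a, which differ both in the fusion and in Meis2, 5 of the 9 genes had a higher and 4 a lower mean, with a median difference of 0.32 against 0.06 for all tested genes. Cpa3 differed by 1.2 ± 0.51 with no overlap, as 9.96% of all genes tested were higher without overlap, and by 0.86 without the library labelled AE+Meis2 replicate 1. Ms4a2 differed by -3.26 ± 1.35 with no overlap, as 8.66% of all genes tested were lower without overlap. That difference lay between -4.47 without the library labelled AE+Meis2 replicate 1 and -1.81 without AE+Meis2 replicate 2. Hdc differed by -2.16 ± 1.49, Cma1 by -0.91 ± 2.02, Mcpt4 by 1.62 ± 2.17, Tpsb2 by 0.98 ± 2.07, Mcpt8 by 1.23 ± 1, Fcer1a by 0.32 ± 0.90 and Il1rl1 by -1.03 ± 0.56. Without the library labelled AE+Meis2 replicate 1, Hdc stood at -3.30, Cma1 at -2.53, Mcpt4 at 0.25, Tpsb2 at -0.60, Mcpt8 at 0.87, Fcer1a at -0.38 and Il1rl1 at -1.50. Tpsb2 and Fcer1a changed sign there. Once AE+Meis2 replicate 2 was left out, Hdc stood at -0.46, Cma1 at 1.38, Mcpt4 at 3.95, Tpsb2 at 3.04, Mcpt8 at 2.28 and Fcer1a at 0.59, and Cma1 changed sign. Leaving out AE9a replicate 1 put Tpsb2 at -1.01, Mcpt4 at 0.17 and Fcer1a at -0.66. None of the 9 passed in limma, against 0.0318% of all genes tested, and 1 of the 9 had an unadjusted p under 0.05, against 5.98% of all. The 3 comparisons share libraries, so their values are not independent of each other, and nothing is read from the counts of the 9 genes because these contrasts were known when the genes were chosen.

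**Figure D2:**
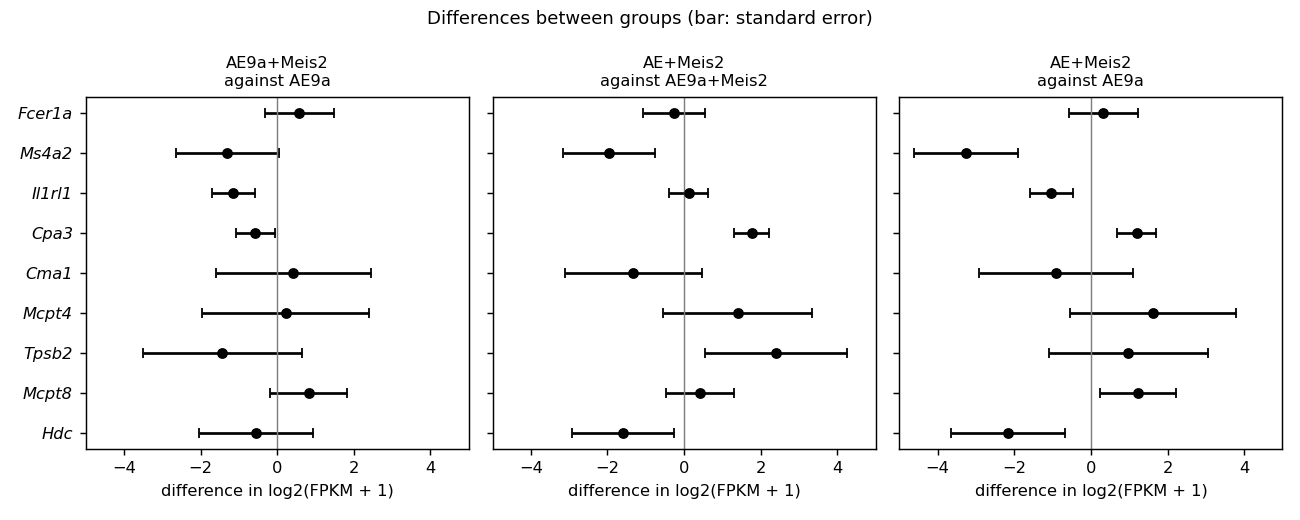
Difference between groups in mean log2(FPKM + 1) for each of the 9 genes in the 3 comparisons, as point and standard error from the limma fit over all 8 libraries. Cpa3 lies right of 0 in both comparisons of AE+Meis2 (1.77 against AE9a+Meis2 and 1.2 against AE9a), and Ms4a2 lies left of 0 in all 3.

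A single library stood apart for these genes: AE+Meis2 replicate 2 was the lowest of the 8 for 6 of the 9 genes, and for 25.7% of all genes tested. For 5 of the 9 (Ms4a2, Cma1, Mcpt4, Hdc and Tpsb2) it lay at least 5-fold below every other library, as it did for 225 of 12565 genes (1.79%). Cpa3, Fcer1a and Il1rl1 were not the lowest there: it was the second highest library for Cpa3. The library labelled AE+Meis2 replicate 1 was the highest for 5 of the 9 genes and for 8.48% of all genes tested, and AE9a replicate 2 was the highest for the 3 genes Ms4a2, Hdc and Il1rl1, and for 10.1% of all genes tested. The mean log2(FPKM + 1) over the 9 genes was 8.32, 3.89 and 6.88 in AE+Meis2, 5.64, 6.60 and 6.53 in AE9a+Meis2, and 5.83 and 7.34 in AE9a.

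The levels of some pairs of the 9 genes ran together over the 8 libraries, where the points of Ms4a2, Cma1, Mcpt4, Hdc and Tpsb2 share the low value of AE+Meis2 replicate 2. On the log2(FPKM + 1) scale, Ms4a2 and Hdc had a Pearson correlation of 0.96 (Spearman 0.76), Cma1 and Hdc of 0.94 (0.69), and Mcpt4 and Tpsb2 of 0.93 (0.90). Ms4a2 and Cma1 reached 0.84 by Pearson but 0.33 by rank. Cpa3 had -0.21 with Ms4a2 and 0.03 with Cma1, and Mcpt8 had -0.48 with Il1rl1. These are descriptions of 8 libraries, with no test.

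Cma1, Mcpt4 and Mcpt8 lie in one cluster of granule protease genes on chromosome 14, between 55941451 and 56262334 (320884 bases, GRCm38.p6), which also holds cathepsin G and the granzyme genes Gzmb to Gzmg and Gzmn. Of its 16 genes, 9 reached an FPKM of 1 in at least 2 libraries. Of these 9, 7 were lowest in AE+Meis2 replicate 2, as were 25.7% of all genes tested. Cma1, Mcpt4 and Mcpt8, already counted above, are among the 7. The exceptions were Ctsg (chosen after its values were seen) and Gzmb, lowest in AE9a+Meis2 replicate 3 and AE9a replicate 1. Mcpt1 and Mcpt2, proteases of mucosal mast cells between Cma1 and Mcpt4, were named after their values were seen. Mcpt1 stood at 112, 0.622 and 57.9 FPKM in AE+Meis2, 45.1, 118 and 275 FPKM in AE9a+Meis2, and 10.7 and 305 FPKM in AE9a. Mcpt2 stood at 103, 1.60 and 79.1 FPKM in AE+Meis2, 23.9, 73.8 and 86.6 FPKM in AE9a+Meis2, and 11.6 and 71.4 FPKM in AE9a. Both were low in AE+Meis2 replicate 2 and, among the others, in AE9a replicate 1, and the granzyme genes Gzmc to Gzmg and Gzmn stayed under 1 FPKM in all 8 libraries.

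Tpsb2 lies in a tryptase cluster on chromosome 17, between 25298394 and 25374442 (76049 bases). There 4 of 6 genes reached an FPKM of 1 in at least 2 libraries. Of these 4, 3 (Tpsb2 among them) were lowest in AE+Meis2 replicate 2, as were 25.7% of all genes tested. The neighbour of Tpsb2, Tpsab1, is annotated by RefSeq as a transcribed pseudogene and was chosen after its values were seen. Tpsab1 stood at 82.6, 0.579 and 27.9 FPKM in AE+Meis2, 5.34, 6.01 and 27.2 FPKM in AE9a+Meis2, and 6.84 and 70.6 FPKM in AE9a. Prss34, a tryptase-like protease of mouse basophils, was highest in AE+Meis2 replicate 3 at 8.94 FPKM, as Mcpt8 was, with 0.621 and 2.04 FPKM in the other 2 libraries labelled AE+Meis2, 0.643, 0.317 and 1.01 FPKM in AE9a+Meis2, and 2.13 and 3.75 FPKM in AE9a. Of the 50-base words of each transcript, 5.38% in Cma1, 5.48% in Mcpt4 and 2.69% in Ms4a2 also occurred in another gene, at most 0.201% in Hdc and Il1rl1, and none in Cpa3, Fcer1a, Mcpt8 and Tpsb2. How far this affects the levels of the first 3 genes is unknown, since the sources used here do not say how shared reads were assigned.

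**Figure D3:**
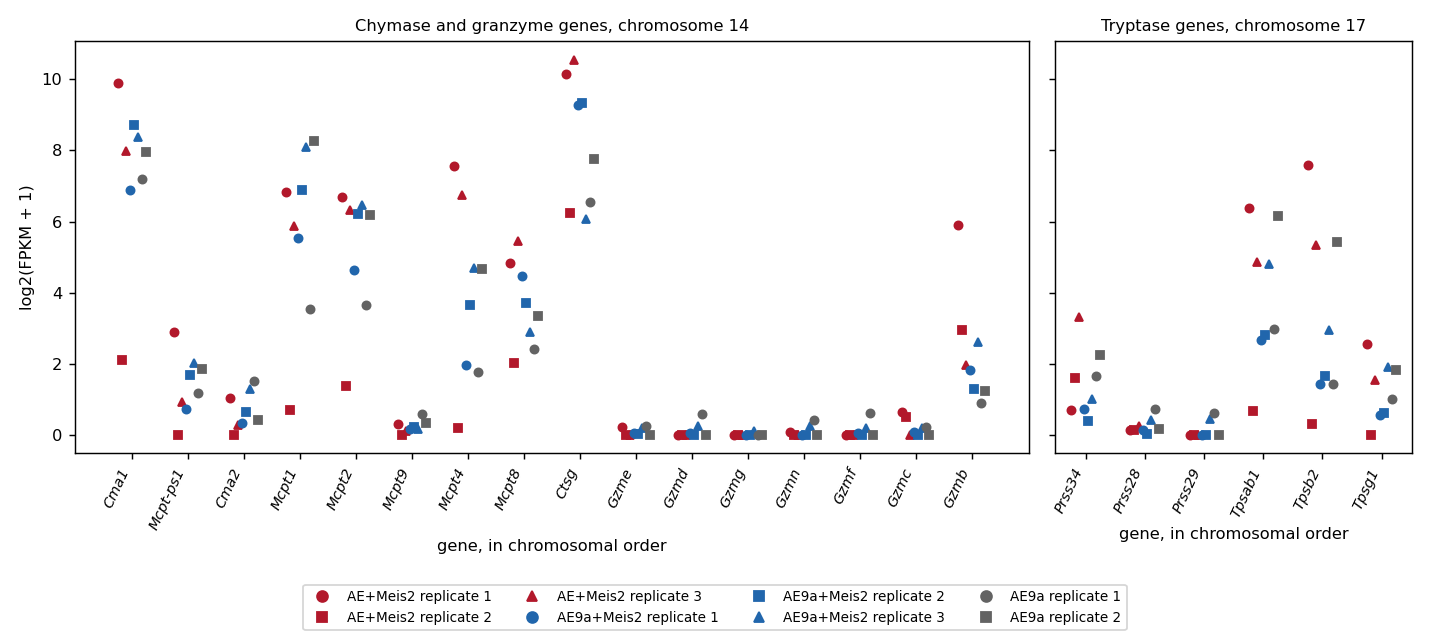
Level of each gene of the chymase and granzyme cluster (left) and of the tryptase cluster (right) in each library, as log2(FPKM + 1), with genes in chromosomal order and 1 point per library. The red square, AE+Meis2 replicate 2, is the lowest point for Cma1, Mcpt1, Mcpt2, Mcpt4, Mcpt8, Tpsab1 and Tpsb2, and the granzymes between Ctsg and Gzmb lie near 0 in all libraries.

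Beside the 9 genes, 8 lists of mast cell and basophil genes by role (79 genes, of which 70 were tested) were examined. None of the 70 passed the threshold in either direction in any comparison in limma. Their median log2 difference was 0.11 between AE9a+Meis2 and AE9a, -0.21 between AE+Meis2 and AE9a+Meis2 and -0.12 between AE+Meis2 and AE9a. At an unadjusted p under 0.05 there were 5 genes (7.14%) between AE9a+Meis2 and AE9a, 4 (5.71%) between AE+Meis2 and AE9a+Meis2 and 2 (2.86%) between AE+Meis2 and AE9a, against 3.06%, 7.15% and 5.98% of all genes tested. Among libraries, AE+Meis2 replicate 2 was the lowest for 35 of the 70 genes and the highest for 12 of them, against 25.7% and 25.1% of all genes tested.

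Genes lowest in AE+Meis2 replicate 2, as 25.7% of all genes tested were, were also counted by role, with no test between roles. The counts were 8 of 10 growth and cytokine receptors, 6 of 9 other granule proteases and processing enzymes, and 4 of 9 granule matrix and amine genes. They were 4 of 13 genes of IgE receptor signalling, 3 of 10 transcription factors and 4 of 7 lipid mediator genes. For effector cytokines the count was 3 of 7 and for connective tissue mast cell genes 3 of 5. Csf2rb, the common beta chain of the IL-3, IL-5 and GM-CSF receptors, stood at 402, 69.1 and 204 FPKM in AE+Meis2, 272, 490 and 406 FPKM in AE9a+Meis2, and 251 and 297 FPKM in AE9a. Cd200r3, an activating receptor of mouse mast cells and basophils, stood at 105, 1.02 and 21.4 FPKM in AE+Meis2, 41.8, 60.9 and 64.7 FPKM in AE9a+Meis2, and 62.2 and 86.0 FPKM in AE9a. Both were lowest in AE+Meis2 replicate 2, with overlapping groups.

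Other genes of the lineage were highest in the same library, among them Kit, Gata2 and Tph1, which were named after their values were seen. Kit, the SCF receptor, stood at 46.6, 224 and 16.3 FPKM in AE+Meis2, 50.7, 53.7 and 42.4 FPKM in AE9a+Meis2, and 66.5 and 121 FPKM in AE9a. Gata2 stood at 120, 189 and 26.7 FPKM in AE+Meis2, 42.0, 63.4 and 66.6 FPKM in AE9a+Meis2, and 73.9 and 96.9 FPKM in AE9a. Tph1, tryptophan hydroxylase of the serotonin pathway, stood at 258, 1210.0 and 30.5 FPKM in AE+Meis2, 135, 349 and 426 FPKM in AE9a+Meis2, and 102 and 194 FPKM in AE9a. Thus AE+Meis2 replicate 2 was the highest library for these 3 genes and the lowest for Ms4a2, Cma1, Mcpt4, Tpsb2 and Hdc, and AE+Meis2 replicate 3 was the lowest for all 3. Mitf, a transcription factor needed for mast cell maturation, stood at 14.1, 1.21 and 4.08 FPKM in AE+Meis2, 7.59, 10.6 and 7.5 FPKM in AE9a+Meis2, and 7.78 and 8.82 FPKM in AE9a, and was also named after its values were seen.

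**Figure D4:**
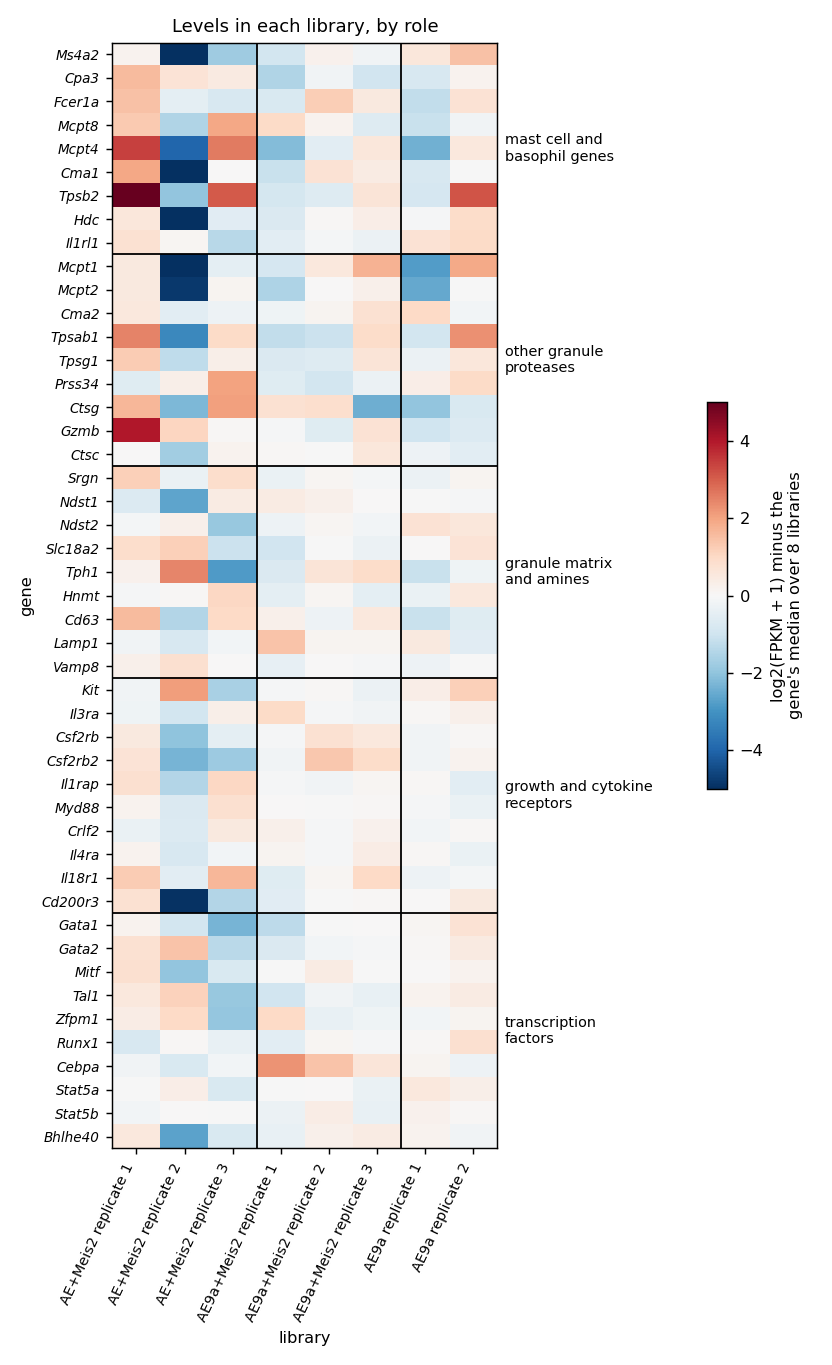
Level of the 9 genes and of 4 of the lists by role in each library, as log2(FPKM + 1) minus the gene's median over the 8 libraries; red is above and blue below the median, and the colours end 5 units either side. The AE+Meis2 replicate 2 column is dark blue for Ms4a2, Cma1, Hdc, Mcpt1, Mcpt2 and Cd200r3 and red for Kit, Gata2 and Tph1.

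Some genes with the smallest p-values in the lists are expressed in other myeloid cells too. Ccl3, a chemokine gene, stood at 6.06, 5.15 and 20.8 FPKM in AE+Meis2, 107, 22.8 and 24.0 FPKM in AE9a+Meis2, and 0.841 and 3.06 FPKM in AE9a. AE9a+Meis2 lay above both of the other groups, by 3.87 ± 0.83 against AE9a (limma, adjusted p = 0.73), and AE+Meis2 differed from AE9a+Meis2 by -2.03 ± 0.74 (adjusted p = 0.66). Cebpa, a transcription factor of granulocyte and monocyte progenitors, stood at 10.2, 6.44 and 10.4 FPKM in AE+Meis2, 59.4, 32.5 and 18.0 FPKM in AE9a+Meis2, and 13.0 and 9.5 FPKM in AE9a. It was higher in all 3 AE9a+Meis2 libraries than in the other 5, with a log2 difference of 1.48 ± 0.47 against AE9a (limma, adjusted p = 1) and with AE+Meis2 at -1.78 ± 0.42 against AE9a+Meis2 (adjusted p = 0.42). Cyp11a1, a steroid-synthesis gene transcribed in mouse mast cells, stood at 152, 1.2 and 6.73 FPKM in AE+Meis2, 60.01, 191 and 156 FPKM in AE9a+Meis2, and 107 and 33.4 FPKM in AE9a, with AE+Meis2 at -3.16 ± 1.45 against AE9a+Meis2 (limma, adjusted p = 0.72). Lat2, an adaptor of FcεRI signalling, was higher in all 3 AE9a+Meis2 libraries (89.8, 80.2 and 82.1 FPKM) than in AE9a (30.2 and 32.4 FPKM), with 73.9, 111 and 22.8 FPKM in AE+Meis2. For Ccl3, Cebpa and Lat2, the share of all genes tested whose libraries lay apart in the same way is not given here.

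Markers of other marrow cells varied over the same libraries, and their part in the levels above was not tested. The 6 promyelocyte markers summed to 2222, 261.5 and 5438 FPKM in AE+Meis2, 1484, 3014 and 639.5 FPKM in AE9a+Meis2, and 416.9 and 1065 FPKM in AE9a, and 5 or 6 of the 6 were at or above 1 FPKM in each library. The 9 neutrophil markers, all at or above 1 FPKM in each library, summed to 16380, 1813 and 190900 FPKM in AE+Meis2, 1876, 12390 and 38800 FPKM in AE9a+Meis2, and 5187 and 20920 FPKM in AE9a. AE+Meis2 replicate 2 had the lowest sum for both lists. For the neutrophil markers its 1813 FPKM was close to the 1876 FPKM of AE9a+Meis2 replicate 1. Of the 9 neutrophil genes, 4 were lowest in AE+Meis2 replicate 2 and the rest in AE9a+Meis2 replicate 1. Of the 6 promyelocyte genes, 5 were lowest in AE+Meis2 replicate 2, as were 25.7% of all genes tested. The sum of the 7 megakaryocyte markers ran the other way there, at 96.28, 359.8 and 15.01 FPKM in AE+Meis2, 12.6, 12.25 and 17.1 FPKM in AE9a+Meis2, and 18.23 and 24.82 FPKM in AE9a. In AE+Meis2 replicate 2, Itga2b alone stood at 255 FPKM. Ppbp and Gp1bb were not highest in that library. The 8 erythroid markers summed to 4345, 1736 and 465.9 FPKM in AE+Meis2, 1024, 2859 and 2345 FPKM in AE9a+Meis2, and 1305 and 2192 FPKM in AE9a, and the 8 monocyte and macrophage markers were highest in AE9a+Meis2 replicate 1 (1866 FPKM, against 349.1 to 739 FPKM in the other 7 libraries). Lists for B cells, T and NK cells, stem and progenitor cells, and stroma and endothelium each summed to no more than 139.4 FPKM in any library.

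Eosinophils and type 2 innate lymphoid cells share genes with the list. The 9 eosinophil markers summed to 75.55, 17.85 and 108.1 FPKM in AE+Meis2, 89.69, 28.78 and 37.09 FPKM in AE9a+Meis2, and 33.51 and 109.8 FPKM in AE9a, with 2 to 5 of the 9 at or above 1 FPKM. The granule genes Epx, Prg3 and Ear6 were each at 0 in at least 1 library, whereas Prg2 (59.7 FPKM in AE+Meis2 replicate 3 and 0.391 to 5.08 FPKM elsewhere) and Ear2 (8.25 to 91.7 FPKM), both named after their values were seen, were above 0 in all 8. Epx, at 2.42 FPKM in AE+Meis2 replicate 3, was no higher than 0.308 FPKM elsewhere. The 6 markers of type 2 innate lymphoid cells, which also carry ST2, summed to 16.45, 15.72 and 7.378 FPKM in AE+Meis2, 5.791, 12.35 and 23.58 FPKM in AE9a+Meis2, and 9.219 and 18.2 FPKM in AE9a. Il1rl1 stood at 69.3 to 361 FPKM, and the part of these cells in its level was not tested.

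Some other genes followed a member closely over the 8 libraries, by the Pearson correlation of log2(FPKM + 1), which is given without a test. Closest to Hdc was Adora3, the adenosine A3 receptor (0.991), which stood at 17.4, 0.709 and 10.3 FPKM in AE+Meis2, 11.5, 13.5 and 16.02 FPKM in AE9a+Meis2, and 17.1 and 18.1 FPKM in AE9a. Closest to Ms4a2 were the metal transporter Slc39a8 (0.988) and carbonic anhydrase Car1 (0.987). Car1 stood at 599, 3.44 and 46.9 FPKM in AE+Meis2, 148, 403 and 209 FPKM in AE9a+Meis2, and 532 and 866 FPKM in AE9a. For Mcpt8 the closest were Xbp1 (0.991), a transcription factor of secretory cells, and Vta1 (0.965), with Ms4a3, one of the promyelocyte markers, next at 0.951. For Tpsb2, Tpsab1 was the fourth closest (0.925), and for Cpa3 the ribosomal protein gene Rps21 was the closest (0.972), which stood at 1558, 1443 and 1427 FPKM in AE+Meis2, 1216, 1302 and 1226 FPKM in AE9a+Meis2, and 1209 and 1349 FPKM in AE9a. As for Hdc and Ms4a2, the lowest library for Adora3, Slc39a8 and Car1 was AE+Meis2 replicate 2.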

How the data were processed

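RNA of whole leukemic marrow was sequenced in 8 libraries. The authors deposited 1 table of FPKM for 23997 genes; the tools named (per the submitters' processing notes) were Cuffdiff, Cufflinks and TopHat, with build mm10, and the sources used here give no versions, settings, annotation or scaling. FPKM holds no counts, so no count test was run. Values were taken to log2(FPKM + 1), a scale that understates changes of low genes, and a gene was tested if 2 or more libraries reached an FPKM of 1. The fit, in limma 3.58.1 (R 4.3.3), used the 8 libraries with a mean for each group, moderation along the intensity trend and Benjamini-Hochberg adjustment over all genes tested (threshold 0.05). The code was tested on simulated data. Tables were handled in Python 3.11.15 with pandas 2.3.3, and figures drawn with matplotlib 3.10.9. Upstream sequences were RefSeq's (GRCm38.p6); no protein sequence was used here.

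The 9 genes and the gene lists were chosen with earlier results of these data known. From each list by role, up to 3 genes with the smallest p in any comparison may be named, along with any past the threshold; other names are said to have been chosen after their values were seen. The genes most alike are the 5 with the highest Pearson correlation to each member, without small RNAs and predicted genes. Other pseudocounts, filters, scalings, a replicate block and leaving out libraries were tried as alternatives.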

Additional observations from a re-analysis of the deposited data

How the results depend on the processing

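For the 9 genes, 459 values under alternative settings were computed, and 26 changed the sign of the difference. Most of these left out libraries, and those from leaving out AE+Meis2 replicate 1 or 2 or AE9a replicate 1 or 2 are given above, except Il1rl1 at -0.01 without AE+Meis2 replicate 2. Cpa3 stayed higher in AE+Meis2 under all 17 alternatives, by 1.43 to 2.12 against AE9a+Meis2 and by 0.71 to 1.70 against AE9a. Fcer1a between AE+Meis2 and AE9a changed sign under 2 scalings (-0.02 and -0.05). The cause was not tested.

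Over all genes, 6 passed between AE9a+Meis2 and AE9a, 2 with the replicate block, 3 without AE9a+Meis2 replicate 3 and AE9a replicate 1, and 2 (without AE9a replicate 1) to 9 on leaving out 1 library. Between AE+Meis2 and AE9a+Meis2, 5 passed, 5 with the replicate block, 16 when scaled to the summed FPKM without small RNAs, and 6 to 23 (without AE+Meis2 replicate 3) on leaving out 1 library. Between AE+Meis2 and AE9a, 4 passed, 1 with no filter on low values, 2 with only both groups' libraries, 0 with the replicate block, and 1 (without the library labelled AE+Meis2 replicate 1 or AE9a replicate 1) to 10 (without AE+Meis2 replicate 3). Same-numbered libraries had deviations correlated between -0.03 and 0.13, so the numbers were not taken to pair them. Depth is unknown, which limits the low values of Mcpt4 and Tpsb2 in AE+Meis2 replicate 2 most.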
